A study of Gallus gallus with 4 samples.

Results

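CTCF is a zinc finger DNA-binding protein that marks many insulators and, together with the cohesin complex, the anchors of chromatin loops. Many of its sites are shared between cell types, while a smaller fraction is occupied in some lineages and not in others, and sites near genes used by erythroid cells, such as the insulator of the chicken beta-globin locus, are among the best studied in birds. The sites described here were called in erythroid HD3 cells both after and before induction of differentiation, and were not called in lymphoid DT40 cells. They are called erythroid sites below, for HD3, and were found by joining peaks of the 3 deposited lists that shared at least 1 bp into sites, and by keeping sites with an induced HD3 peak, a non-induced HD3 peak and no DT40 peak. Only chromosomes 1, 3 to 10, 12 to 19 and 21 to 28 were used. Of the 15733 sites in the whole series, 719 met the rule without the limit on chromosomes. With that limit there were 589, of the 10842 sites on the same chromosomes. They made up 8.03% of the 7336 sites with a peak in either HD3 list there. Of the 3560 sites called in both HD3 states, they were 16.5% (95% interval 15.3 to 17.8), and the other 2971 were also called in DT40. Both values depend on the peaks compared: keeping the 4820 highest-scored peaks of each list gave 1008 such sites (34.5%, interval 32.7 to 36.2), and leaving out peaks scored below 100 gave 225 (14.9%, interval 13.1 to 16.8).

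The study mapped CTCF by chromatin immunoprecipitation and sequencing in 1 library per group. Induced HD3 cells had been kept in HEPES-buffered medium with iso-H-7, an inhibitor of protein kinases, in air, to start erythroid differentiation, and non-induced HD3 cells had not. The label also gives an induction temperature, which is misprinted there and is not stated here. Both come from clone A6 of a single erythroblast line that carries avian erythroblastosis virus, so erythroid here means this clone. DT40 is a B-lymphoid line, grown with added beta-mercaptoethanol, and an HD3 input library was not used here. All 3 groups were precipitated with the same rabbit antibody to the N-terminal part of chicken CTCF. Peak lists carry no expression values, so the labelled cell types could not be checked against marker genes.

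The induced HD3 list held 4820 peaks, the non-induced one 8768 and that of DT40 13574. Read counts are not part of them, so depth is unknown. Each peak has the authors' caller score, whose lowest value was close to 50 in every list, and scores were ranked only within a list: where both are given, they are not compared by size. Coordinates are those of galGal4, counted from 1. Erythroid sites were chosen by the authors' peak calls in the 3 lists. Their number and their lack of a DT40 call are therefore descriptions with no test, and a missing call does not show an unoccupied site. With no replicate in any group, no p-value was computed and no difference below was tested across samples; the intervals cover counting error only.

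The erythroid sites were spread over the HD3 score ranges, from peaks at the lowest scores to some of the highest. In the induced list their scores ran from 50.1 to 610, with a median of 76.9 and 10th and 90th percentiles of 53.8 and 152. In the non-induced list they ran from 50.1 to 836, with a median of 145 and percentiles of 67.7 and 276. The median site scored above 41.6% of all induced HD3 peaks and above 65.0% of all non-induced HD3 peaks. Sites called in all 3 lists scored higher in the same lists, with medians of 93.7 in the induced and 187 in the non-induced list. Among the 100 highest-scored peaks of each list there were 5 erythroid sites after induction and 4 without it. Among the 1000 highest there were 69 and 55 of them, in the same order. The full lists held 4820 and 8768 peaks, of which 3870 and 7063 lay on the chromosomes used. By these counts the 589 sites were a smaller part of the top of the induced list than of that whole list. In the non-induced list the counts at the top were closer to the part the sites made up of the whole list. No interval was computed for either, and the choice of sites by an induced peak bears on the counts in the non-induced list. Both scores reached 100 at 175 of the 589 sites (29.7%, interval 26.0 to 33.6), against 45.0% (interval 43.2 to 46.8) of the sites called in all 3 lists.

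The same 5 sites had the highest scores of the erythroid sites in both HD3 states. In each the first was on chromosome 13 at 8824366 to 8825693, with a score of 610 in induced HD3, against 836 in non-induced HD3. Its nearest DT40 peak was 15.3 kb away. The second in induced HD3, on chromosome 8 at 26796494 to 26797729, scored 547 in induced HD3, against 706 in non-induced HD3, with the nearest DT40 peak at 25.0 kb. The site on chromosome 3 at 81329574 to 81330891 scored 410 and 669 in induced and non-induced HD3, and its nearest DT40 peak was 101 kb away. These are thus sites that stood among the strongest of both erythroid lists with no DT40 peak beside them. The site on chromosome 1 at 15304925 to 15306290 scored 373 in induced HD3, against 811 in non-induced HD3, and had a DT40 peak at 9.67 kb. The fifth, on chromosome 12 at 6155660 to 6157092, scored 357 in induced HD3, against 788 in non-induced HD3, with a DT40 peak at 18.5 kb. Within the full lists these 5 sites held ranks 26 to 99 after induction and 61 to 113 without it.

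**Figure D1:**
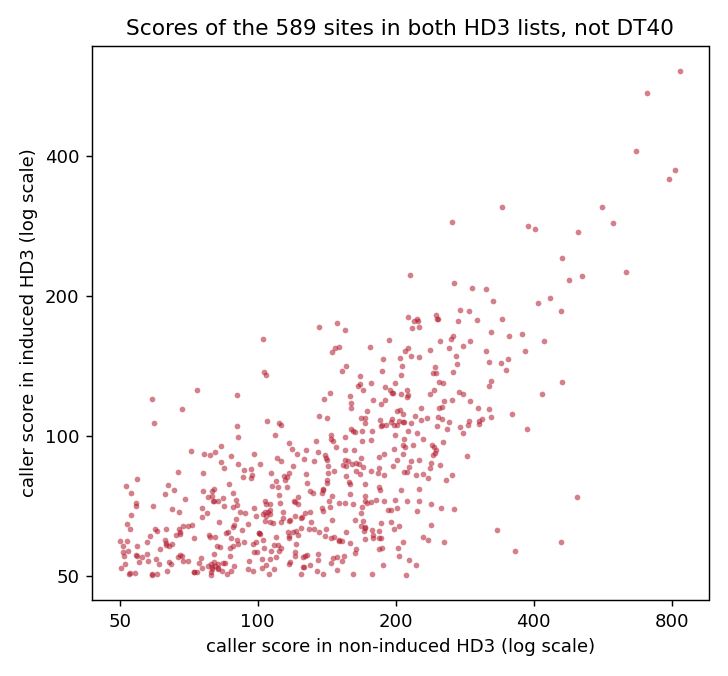
Caller score in induced HD3 (vertical, log scale) against the score in non-induced HD3 (horizontal, log scale), 1 point for each of the 589 erythroid sites. The points follow each other loosely, with Spearman's rho 0.65, and the 5 sites at the upper right are the highest of the 589 in both lists.

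The order of the sites was partly kept between the HD3 states. Across the 589 sites Spearman's rho between the induced and non-induced scores was 0.65, against 0.73 across the 2971 sites called in all 3 lists. Sites share 2 libraries and are not replicates, so these are descriptions. Of the 20 highest-scored erythroid sites of each state, 12 were the same. When peaks scored below 100 were left out of all lists, rho over the resulting 225 sites was 0.44.

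Some sites stood far higher in the order of one HD3 state than in that of the other. The site on chromosome 17 at 640615 to 641466 scored 120 in induced HD3 (rank 112 of 589) and 58.7 in non-induced HD3 (rank 561). On chromosome 1, the site at 102145654 to 102146372 had rank 97 in induced HD3 and rank 516 in non-induced HD3, and the site at 181154169 to 181155869 had ranks 126 and 528 in the same order. The next were on chromosome 5 at 55826275 to 55827038 (ranks 156 and 557) and on chromosome 19 at 9515003 to 9516050 (ranks 47 and 420). All 5 were more prominent among the erythroid sites after induction. In the opposite direction, the site on chromosome 18 at 4331635 to 4333172 scored 56.4 in induced HD3 (rank 495) and 363 in non-induced HD3 (rank 26). The site on chromosome 7 at 22102293 to 22104576 scored 59.1 in induced HD3 (rank 466) and 460 in non-induced HD3 (rank 15). Its induced peak was 619 bp long and its non-induced peak 2284 bp, against 578 and 1538 bp at the chromosome 18 site. The remaining 3 lay on chromosome 19 at 8229174 to 8230323 (ranks 587 and 145), chromosome 12 at 19252792 to 19254051 (ranks 551 and 126) and chromosome 10 at 17947712 to 17948994 (ranks 528 and 136). Their non-induced peaks were 1150, 1260 and 1283 bp long. All 5 sites that fell in rank kept a peak after induction that was close to the lowest score of the induced list. With 1 library per state, none of these shifts has a replicate check.

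At most sites the peaks of the HD3 states were centred on nearly the same place. The highest-scored induced peak of a site lay wholly inside the non-induced peak at 587 of the 589 sites. Their midpoints were a median of 37 bp apart, and within 100 bp at 83.9% of the sites (interval 80.6 to 86.8), against 33 bp and 85.7% (interval 84.4 to 87.0) for sites called in all 3 lists. Median peak length was 624 bp in induced HD3 (interquartile range 568 to 683) and 1218 bp in non-induced HD3 (1151 to 1279). The corresponding lengths at sites called in all 3 lists were 660 and 1240 bp. The lists as a whole had medians of 650 and 1217 bp, so erythroid sites shared the length difference that the lists show. At 5 sites a single non-induced peak overlapped 2 induced peaks, on chromosomes 9, 12, 21, 24 and 27.

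No site lay close to the overlap of 1 bp that separates erythroid sites from those shared with DT40. The closest DT40 peak to any erythroid site left 191 bp between them, at chromosome 13, 16143282 to 16144547, where the scores were 108 in induced HD3, against 105 in non-induced HD3. The next gaps were 229 bp, at chromosome 1, 71038421 to 71040510, and 313 bp, at the chromosome 18 site whose rank was so much lower after induction. At sites called in all 3 lists, the larger of the DT40 overlaps with the induced and the non-induced peak was taken. Just on the other side, the smallest of these was 353 bp at chromosome 5, 53915001 to 53915763. Next were 381 bp at chromosome 25, 1573055 to 1574041, and 409 bp at chromosome 13, 2633389 to 2634175. At 1 of the 2971 sites called in all 3 lists DT40 overlapped the non-induced peak and not the induced one. Requiring an empty margin of 1000 bp around each site left 583 of the 589. The limits set by score were closer: the lowest induced score was 50.1 on chromosome 1 at 170258423 to 170259445, and the lowest non-induced score was also 50.1, on chromosome 19 at 7300781 to 7302021.

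How often a site lacked a DT40 call varied with the score in either HD3 list. The sites called in both HD3 states were divided by score into 10 groups of 356 sites. By induced score, 5.62% of the highest group lacked a DT40 peak (interval 3.47 to 8.54) and 24.4% of the lowest (interval 20.1 to 29.2). By non-induced score, the values were 5.34% (interval 3.24 to 8.21) and 26.4% (interval 21.9 to 31.3). In the division by non-induced score the share stayed between 16.3% and 19.9% in groups 3 to 7, counted from the lowest, and was at most 10.96% in groups 8 to 10.

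Of the sites called in both HD3 states 16.5% lacked a DT40 peak, against 35.5% (interval 33.9 to 37.1, 1244 of 3503) of the sites with a non-induced and no induced HD3 peak. The sites without an induced peak were mostly in the lower score groups. For this comparison all sites with a non-induced peak were divided by that score into 10 groups. The difference depended on the score. In group 3, between scores of 67.7 and 79.2, the shares were 20.9% (interval 14.8 to 28.2) with an induced peak and 40.3% (interval 36.2 to 44.5) without one. In group 5 they were 20.7% (interval 16.1 to 26.1) with and 29.7% (interval 25.5 to 34.3) without. In group 7, between scores of 134 and 168, they were 18.3% (interval 14.9 to 22.0) with and 17.3% (interval 12.6 to 22.9) without. In group 8 they were 19.5% (interval 16.3 to 23.0) with and 22.0% (interval 15.2 to 30.0) without. The intervals were apart in groups 2 and 3 and overlapped in the others, and in group 10 only 3 sites had no induced peak. Among the sites with an induced and no non-induced HD3 peak, 52.4% (interval 46.3 to 58.4, 143 of 273) lacked a DT40 peak. These sites were not compared with the others at equal score.

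**Figure D2:**
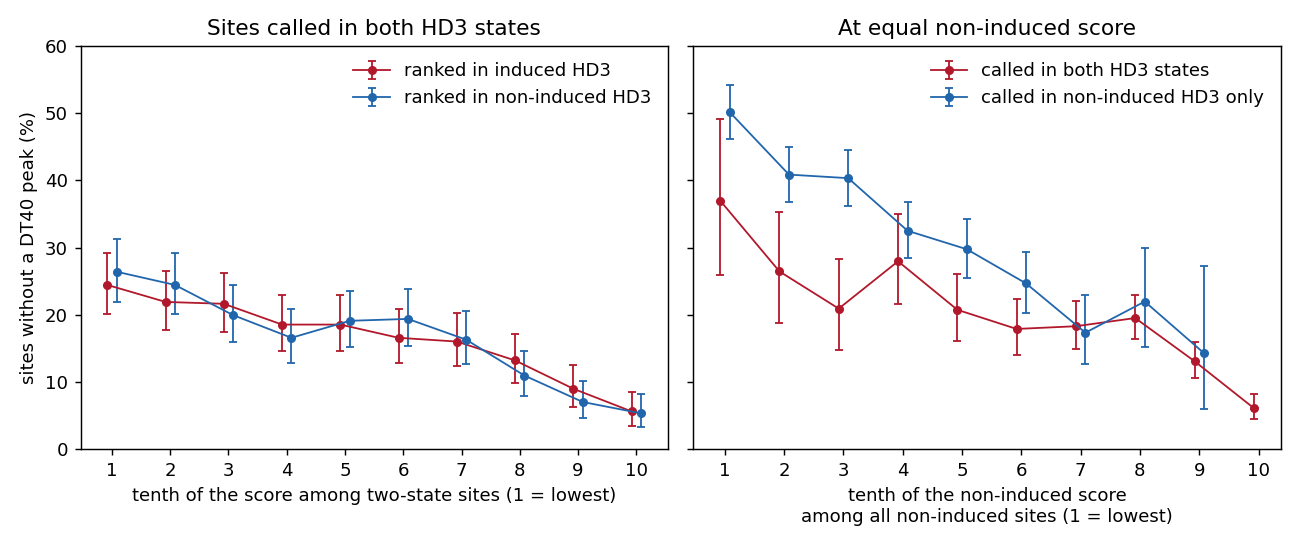
Share of sites without a DT40 peak (%) in 10 groups of rising caller score, with exact 95% intervals for counting error, for sites called in both HD3 states (left) and, at equal non-induced score, for sites called in both states or in the non-induced state only (right; its highest group for the non-induced state only, with 3 sites, is not drawn). The share is lower at higher scores, and the curves on the right come together from group 7 on.

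Erythroid sites were found on 24 of the 25 chromosomes, with none among the 4 sites called in both HD3 states on the short chromosome 16. Chicken chromosomes comprise a few large macrochromosomes and many small, gene-dense microchromosomes. There were 179 sites on the microchromosomes (12 to 19 and 21 to 28), 128 on the intermediate chromosomes 6 to 10 and 282 on macrochromosomes 1, 3, 4 and 5. Their density was 1.30 per Mb on microchromosomes (interval 1.12 to 1.505). It was 0.894 per Mb (interval 0.745 to 1.06) on the intermediate and 0.619 per Mb (interval 0.549 to 0.696) on the macrochromosomes. Sites called in all 3 lists were spread in the same direction, at 7.41, 4.47 and 2.88 per Mb. The share of sites of both HD3 states without a DT40 peak was 14.9% (interval 12.9 to 17.1), 16.7% (interval 14.1 to 19.5) and 17.7% (interval 15.9 to 19.7) in the same order. These intervals overlap, but with 4820 peaks kept per list the share was 30.2% (interval 27.5 to 33.1) on microchromosomes and 38.1% (interval 35.4 to 40.8) on macrochromosomes. With a reciprocal overlap of 50%, which also applied between the HD3 peaks, it was 9.74% (interval 7.96 to 11.8) on microchromosomes and 14.1% (interval 12.3 to 16.1) on macrochromosomes. In both settings the intervals were apart. In the other settings that gave both shares they overlapped, and all settings rest on the same 3 lists. Among sites with a non-induced and no induced HD3 peak, the share without DT40 was 28.7% on microchromosomes (interval 25.9 to 31.7) and 39.2% on macrochromosomes (interval 37.0 to 41.5).

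Single chromosomes differed little beyond counting error. The highest share was on chromosome 27, where 16 of 62 sites of both HD3 states lacked a DT40 peak (25.8%, interval 15.5 to 38.5), which also had the highest density at 3.07 per Mb. Chromosome 12 followed with 28 of 113 (24.8%, interval 17.1 to 33.8). The lowest shares, leaving out chromosome 16, were on chromosome 15 with 7 of 92 (7.61%, interval 3.11 to 15.1) and chromosome 14 with 11 of 110 (10%, interval 5.10 to 17.2). Chromosome 15 was below the overall share of 16.5% and chromosome 12 above it by their intervals, but 24 chromosomes were looked at. On the larger chromosomes 1 and 3 to 8 the share lay between 17.3% and 19.1%. On chromosome 12, sites with a non-induced and no induced peak lacked DT40 in 23.9% of cases (interval 15.6 to 33.9), below the 35.5% over all chromosomes, whereas its sites of both states lay above the overall 16.5%.

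**Figure D3:**
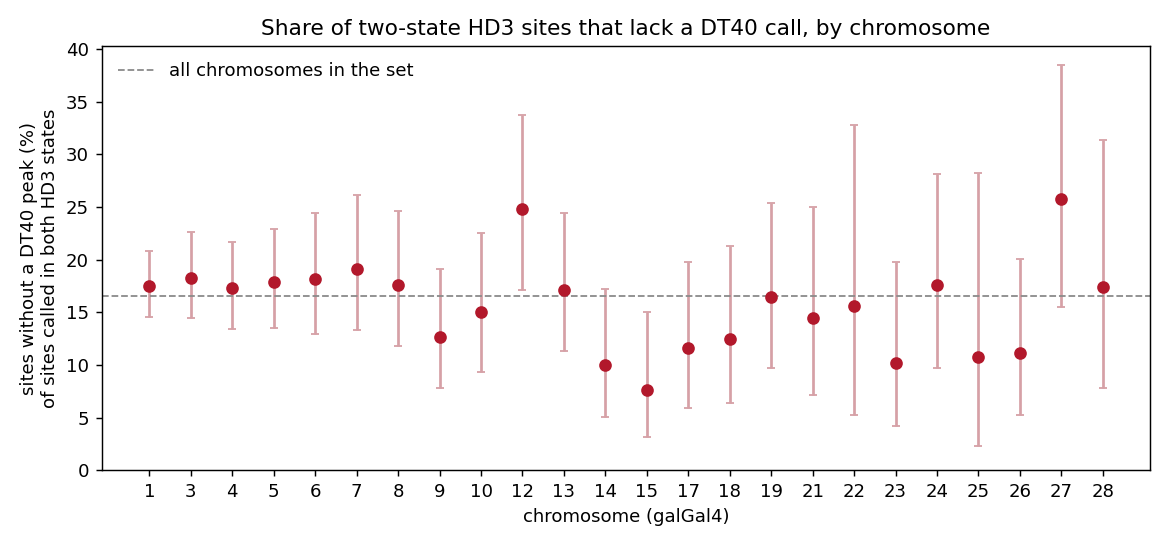
Share of sites called in both HD3 states that have no DT40 peak (%), by chromosome, with exact 95% intervals for counting error; the dashed line is the share over all chromosomes in the set, 16.5%, and chromosome 16 with 4 sites is not drawn. Chromosomes 27 and 12 are the highest at 25.8% and 24.8%, and chromosome 15 is the lowest at 7.61%.

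Most erythroid sites lay more than 10 kb from the nearest DT40 peak, as did most sites of a single HD3 state without a DT40 call. Gaps of randomly placed positions were not computed. The median gap was 31.4 kb (interquartile range 12.4 to 76.8 kb), and it was 25.1 kb on microchromosomes and 35.8 kb on macrochromosomes. It depended on the DT40 peaks compared: the median was 81.2 kb when 4820 peaks per list were kept and 65.6 kb when peaks scored below 100 were left out. Both settings left out DT40 peaks, which can only lengthen the gap of a given site. With the limit of 100 held for the HD3 lists only, the DT40 list stayed whole and the median was 33.2 kb. A DT40 peak lay within 10 kb of 126 sites (21.4%, interval 18.1 to 24.9) and within 1 kb of 6. For sites called in non-induced HD3 alone the median gap was 26.3 kb, with 24.5% (interval 22.1 to 27.0) within 10 kb and 3.62% (interval 2.65 to 4.81) within 1 kb, against 1.02% (interval 0.375 to 2.20) of the erythroid sites within 1 kb. For the 143 sites called in induced HD3 alone the median was 39.1 kb. A gap of more than 100 kb was found at 117 erythroid sites (19.9%, interval 16.7 to 23.3).

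The surroundings of erythroid sites were compared with those of sites called in all 3 lists. Within 100 kb centred on the site, leaving out the site itself, erythroid sites had a mean of 0.745 induced HD3 peaks, 1.23 non-induced HD3 peaks and 1.25 DT40 peaks. Sites called in all 3 lists had 0.858, 1.54 and 1.99 in the same order, higher for each list and by most for DT40. No other induced HD3 peak was found in this window for 51.8% of erythroid sites (interval 47.7 to 55.9), against 44.6% (interval 42.8 to 46.4) of the sites called in all 3 lists. No DT40 peak at all was found for 36.7% of erythroid sites (interval 32.8 to 40.7), against 20.0% (interval 18.5 to 21.4) with no further DT40 peak around sites called in all 3 lists. Sites called in non-induced HD3 alone had 1.44 DT40 peaks on average and none for 33.4% (interval 30.7 to 36.1), between those values, whereas their mean of 0.686 induced HD3 peaks was below both.

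**Figure D4:**
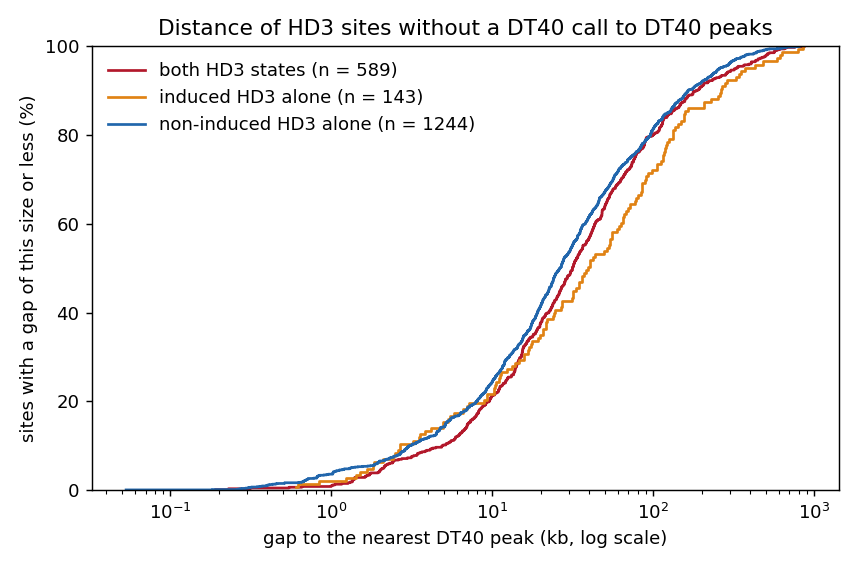
Cumulative share of sites (%) by the gap to the nearest DT40 peak (kb, log scale) for sites without a DT40 call that were called in both HD3 states (589), in induced HD3 alone (143) or in non-induced HD3 alone (1244). The median gap is 31.4 kb for sites of both states, 39.1 kb for induced HD3 alone and 26.3 kb for non-induced HD3 alone.

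Many erythroid sites had another one as a neighbour. Along the sites called in both HD3 states, at least 1 of the neighbours was an erythroid site for 235 of the 589 (39.9%, interval 35.9 to 44.0), against 27.7% (interval 26.1 to 29.3) of the 2971 sites called in all 3 lists. The values were closer among high scores: with a score of at least 100 in the HD3 lists, the values were 22.3% (interval 16.4 to 29.2) and 21.5% (interval 19.3 to 23.8), and with that score in all lists 29.8% and 26.2%. With 4820 peaks kept per list they were 58.7% (interval 55.6 to 61.8) and 54.1% (interval 51.8 to 56.3). They stayed apart with a reciprocal overlap of 50%, at 33.2% (interval 28.4 to 38.4) and 21.1% (interval 19.5 to 22.7). Midpoints within 500 bp gave 39.7% and 27.6%. Without a DT40 peak within 10 kb of an erythroid site they were 41.5% and 21.2%. Taking sites of any class, the nearest one was another erythroid site for 13.1% (interval 10.5 to 16.1), although these sites make up 5.43% of all sites on the chromosomes. It was a site of non-induced HD3 alone for 17.7% (interval 14.7 to 20.98), against 11.5% of all sites. Most often it was a site called in all 3 lists, for 27.5% (interval 23.9 to 31.3), against 27.4% of all sites. Sites of DT40 alone were nearest for 22.4%, against 32.3% of all sites, and those of non-induced HD3 and DT40 for 15.6%, against 20.8%. For sites called in all 3 lists, the nearest was an erythroid site in 5.39% (interval 4.60 to 6.26). It was a site of DT40 alone in 27.7% of them (interval 26.1 to 29.3), also below the 32.3% of all sites. A site of non-induced HD3 and DT40 was nearest to 23.4% of them, and one of non-induced HD3 alone to 10.7%. Neighbouring erythroid sites were a median of 112 kb apart, against 87.8 kb for neighbours that were both called in all 3 lists. Mixed pairs, with 1 site of each kind, were a median of 116 kb apart, and 7.13% (interval 5.53 to 9.01) lay within 10 kb. Of the pairs of erythroid sites, 17 of 135 lay within 10 kb (12.6%, interval 7.51 to 19.4), against 9.47% (interval 8.35 to 10.7) of the pairs called in all 3 lists.

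The 589 sites formed 454 unbroken runs along the sites of both HD3 states. Of these, 354 held a single site, 75 held 2, 16 held 3, 8 held 4 and 1 held 5. In 56 of the 100 runs of 2 or more, no DT40 peak lay between the first and the last site. This count has no comparison, as the same is not given for other neighbouring sites of both HD3 states. The most compact run of 4 lay on chromosome 7 within 45.3 kb. Its sites were at 15786366 to 15787677 (scores 85.1 in induced and 237 in non-induced HD3), 15795619 to 15796691 (103 and 213), 15811232 to 15812483 (147 and 351) and 15829668 to 15831690 (110 and 247). Every one of them scored above 200 in non-induced HD3, and 2 further sites between them were called in non-induced HD3 alone. The whole run lay in an interval of 210 kb with no DT40 peak, from 15640383 to 15850134.

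Other runs were also compact. On chromosome 24, 4 sites lay within 78.5 kb, at 3776138 to 3777682 (scores 142 in induced and 272 in non-induced HD3), 3795855 to 3797163 (69.3 and 107), 3825897 to 3827759 (84.0 and 147) and 3853357 to 3854645 (105 and 190). The surrounding interval without a DT40 peak was 413 kb long, and no site of a single HD3 state lay between them. On chromosome 27, 4 sites lay between 724694 and 808452, with induced scores of 68.2 to 91.1 and non-induced scores of 62.9 to 168, and 1 DT40 peak lay among them. On chromosome 1, 4 sites between 39822564 and 40004489 had induced scores of 53.8 to 109 and non-induced scores of 68.7 to 168, inside 440 kb without a DT40 peak. On chromosome 26, 3 sites lay within 17.3 kb, from 4610803 to 4628110, with induced scores of 76.1 to 91.9 and non-induced scores of 130 to 244. The runs on chromosomes 1 and 26 were sites of both HD3 states only, with no other HD3 site between them. Among the 8 runs of 4, those described were picked for being compact after their values were seen, as was the run of 3 on chromosome 26.

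**Figure D5:**
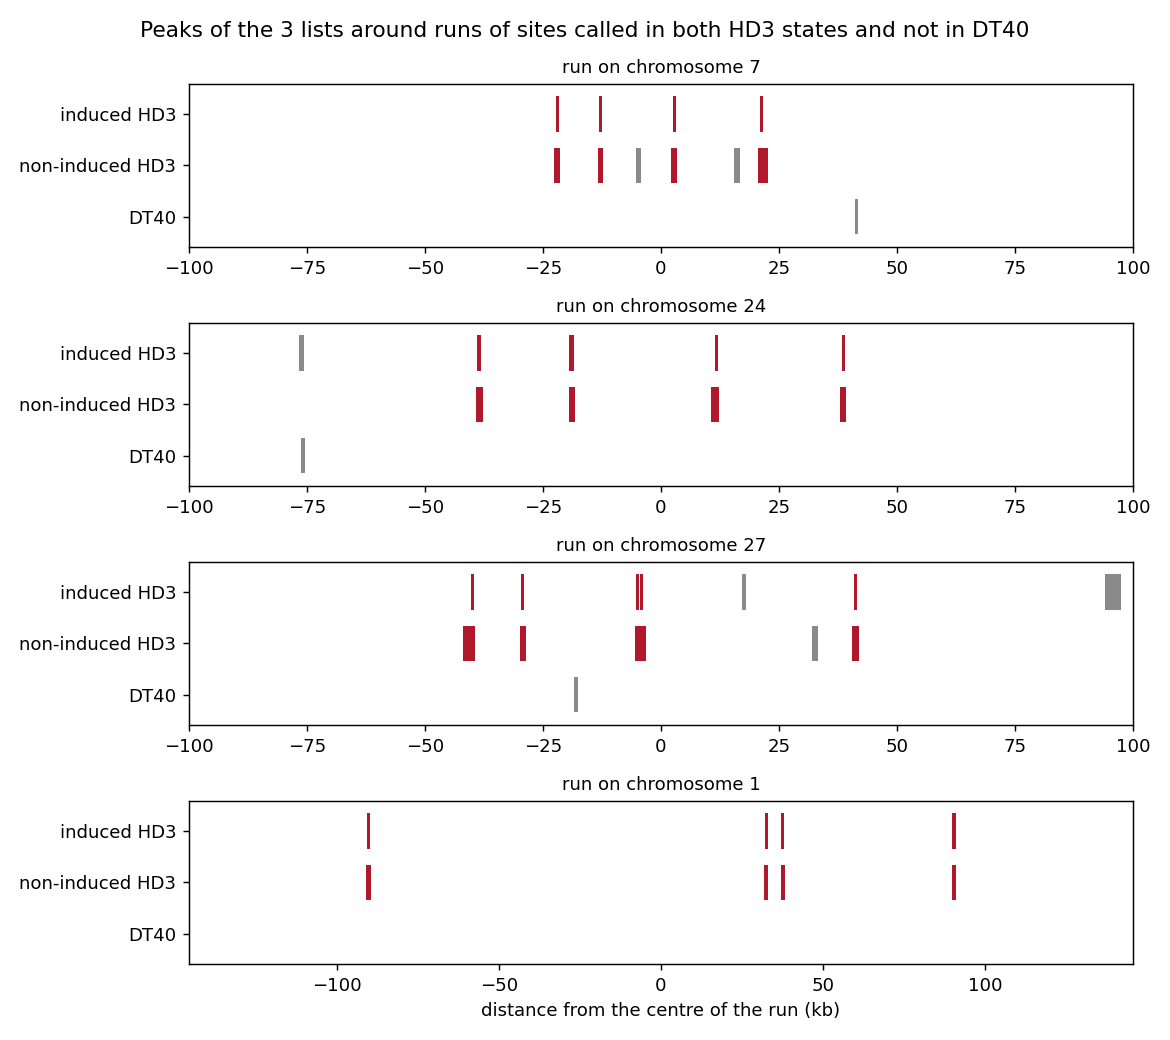
Peaks of induced HD3, non-induced HD3 and DT40 (rows) around the 4 shortest runs of at least 4 erythroid sites, by distance from the centre of the run in kb; red marks peaks of erythroid sites, grey all other peaks, and narrow peaks are widened to be visible. The runs on chromosomes 7, 24 and 1 hold no DT40 peak, and the run on chromosome 27 holds 1.

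The longest run and several of the most isolated sites lay in stretches of chromosomes 1 and 3 that were almost bare in DT40. The run of 5 lay on chromosome 3 from 88806917 to 90954267, with induced scores of 51.5 to 138 and non-induced scores of 65.7 to 187, and 1 DT40 peak inside it. Its last 4 sites lay in an interval of 1861 kb without a DT40 peak, from 89175630 to 91036376, which held no site of a single HD3 state. Also on chromosome 3, 4 sites between 42246171 and 42583686 lay in 843 kb without a DT40 peak. The strongest of them, at 42246171 to 42247375, scored 166 in induced HD3, against 376 in non-induced HD3. On chromosome 1, an interval of 1748 kb from 80782748 to 82531031 held 4 erythroid sites, 3 sites of non-induced HD3 alone and 2 of induced HD3 alone. It contains the erythroid site furthest from any DT40 peak, at 81651476 to 81653807, with a gap of 869 kb and scores of 88.7 in induced HD3, against 225 in non-induced HD3. The next furthest were on chromosome 3 at 83112050 to 83113132 (756 kb), chromosome 1 at 96695866 to 96697134 (667 kb) and chromosome 3 at 90382281 to 90383455 (653 kb) and 82963358 to 82964471 (607 kb). Of these, the site at 96695866 was the strongest in induced HD3, with a score of 177 there and 224 in non-induced HD3.

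Such isolation was the exception. The 8955 intervals between DT40 peaks had a median length of 33.4 kb, and 496 of them held at least 1 erythroid site. Longer intervals have more room for a site, and the 496 had a median of 145 kb. There were 53 intervals of at least 1 Mb, of which 27 held an erythroid site, 46 sites in all (7.81%, interval 5.77 to 10.3). Of the 216 intervals of at least 0.5 Mb, 78 held an erythroid site, 111 sites in all (18.8%, interval 15.8 to 22.2). The share of chromosome length in these intervals was not computed, so neither value shows an excess or a lack of sites there. In 429 intervals there was a single erythroid site, and 156 sites shared their interval with another.

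Crowded regions were also found where DT40 had peaks. There were 4 windows of 1 Mb with 6 erythroid sites each, the most of any window: chromosome 1 from 71000001, chromosome 7 from 15000001, chromosome 19 from 9000001 and chromosome 24 from 3000001. They held 11, 7, 7 and 16 DT40 peaks and 5, 4, 6 and 6 sites called in all 3 lists, in that order. On chromosome 1 the 6 sites lay within 497 kb and included the site only 229 bp from a DT40 peak. Most of the 375 windows with an erythroid site had few: 240 had 1 and 81 had 2.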

How the data were processed

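Peaks were called per library by the authors, 1 list each for induced HD3, non-induced HD3 and DT40. The build was galGal4 and CASAVA 1.8.2, MACS and Bowtie2 were used, per the submitters' processing notes, which as used here state neither parameters nor controls. The deposited score of each peak is the caller's, on a scale that the files do not state. Starts were counted from 1. Peaks overlapping by at least 1 bp were joined into sites; a site's score in a list is its highest peak's. Intervals are at 95%, exact Clopper-Pearson for shares and exact Poisson for densities, over spans that end at a chromosome's last peak. Gaps count the bases between a site and the nearest DT40 peak. On simulated lists of widely spaced sites, with at most 1 peak of a list at each, 6000 of 6000 sites fell in their class. Close gaps and sites with several peaks of a list were not simulated. Software was SciPy 1.17.1, pandas 2.3.3 and NumPy 2.4.6 under Python 3.11.15, with plots from matplotlib 3.10.9. Sites named are those highest in each HD3 list, most shifted in rank between states, furthest from or nearest to DT40 and at the overlap limit, the longest runs, the densest 1 Mb windows and the extreme chromosomes, plus compact runs and DT40-free intervals chosen after their values were seen. The members and all lists were chosen with earlier results of these data known. No galGal4 sequence or gene models were used, so sites carry no gene names or sequences and the planned motif, base composition and gene analyses were not run.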

Additional observations from a re-analysis of the deposited data

Results flagged for a closer look

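Sites called in both HD3 states and not in DT40 were also present on the sequences left out of the chromosome set, which the comparisons above do not use. There were 130 of them among 843 sites called in both HD3 states (15.4%, interval 13.0 to 18.0). Chromosome Z had 52 of 202 (25.7%, interval 19.9 to 32.3), chromosome 2 had 54 of 425 (12.7%), chromosome 11 had 12 of 95 (12.6%), chromosome 20 had 9 of 118 (7.63%) and chromosome W had 3 of 3.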

How the results depend on the processing

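No paired analysis was possible because there is 1 library per group, and no replicate could be left out. The depth of the libraries is unknown, so a missing DT40 call cannot be told from a weak one. All settings were set down with earlier results of these data known. Shares were counted as moved outside the interval of the value given above, counts beyond 1.5 times and rho beyond 0.1. Equal numbers of top-scored peaks gave 1008 sites, of which 427 were among the 589, with 34.5% of sites of both HD3 states lacking DT40 (30.2% on microchromosomes, 38.1% on macrochromosomes), rho 0.51, 58.7% beside another such site (54.1% for sites called in all 3 lists) and 12.8% with a DT40 peak within 10 kb. Leaving out peaks scored below 100 gave 225 sites, 14.9% (12.5% on microchromosomes), rho 0.44, 29.8% beside another and 16% near DT40. When this limit held for the HD3 lists only, there were 175 sites, 11.6% (10.04% on microchromosomes, 13.3% on macrochromosomes), rho 0.45 and 22.3% beside another. The share near DT40 was 22.9% in this setting and did not count as moved. A reciprocal overlap of 50% gave 358 sites, of which 353 share a place with the 589. It gave 12.1% (9.74% on microchromosomes, 14.1% on macrochromosomes) and 33.2% beside another (21.1% for sites called in all 3 lists). This limit of 50% also applied between the HD3 peaks of a site. Their median lengths of 624 bp in induced and 1218 bp in non-induced HD3 put a contained induced peak close to 50%. Without a DT40 peak within 10000 bp the share was 13.0%, and with sites of any class as neighbours 20.4% lay beside another. Midpoints within 500 bp moved none of the 7 values it was run on. An empty margin of 1000 bp, run on the count and the overall share, moved neither, and dividing the chromosomes after 8 moved neither share it was run on. In every setting that gave both, the share was lower on microchromosomes than on macrochromosomes, with intervals apart under equal numbers and reciprocal overlap. A lower count follows from the construction where the score limit held for the HD3 lists only. With the limit in all lists, 175 of the 225 sites were among the 589, since leaving out DT40 peaks can also add sites. Keeping 4820 peaks per list left the induced list whole and cut the non-induced list from 8768 peaks and the DT40 list from 13574. Sites with a lower-scored DT40 peak could thereby join the 1008. Those of the 589 with a lower-scored non-induced peak could drop out. Otherwise the cause was not tested.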
